A study of Homo sapiens with 6 samples.

Results

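The clustered histone genes are the genes whose symbols begin with HIST1H, HIST2H, HIST3H or HIST4H. There were 65 of them among the 19386 genes of the deposited table, chosen by symbol alone, and 21 reached a mean of 10 estimated reads over the 6 libraries. That mean was taken over both groups together and says nothing by itself about a difference between them. By chromosome, 50 of the 65 genes lie on chromosome 6, 14 on chromosome 1 and 1 on chromosome 12, and the 21 genes above the limit lie on chromosome 6 (12 genes) and chromosome 1 (9 genes).

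RNA was sequenced from AC16, an immortalised human line labelled as wild-type cardiomyocytes. Of the 6 libraries, 3 came from untreated cells (control) and 3 from cells kept in 26 mM potassium chloride (KCl), which depolarises the membrane, and both groups were harvested at 16 h. All libraries are of 1 cell line, and the labels do not say whether replicates were separate cultures, so every p-value below rests on library-to-library spread, which may be only technical. The study's title links potassium and cardioplegia to NRF2 and oxidative stress, and names no question about histones.

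Replication-dependent histone genes supply the H1 linker and the H2A, H2B, H3 and H4 core proteins that package newly made DNA, and they are transcribed mainly in S phase. Their transcription depends on NPAT, and their messenger RNA usually ends in a short stem-loop bound by SLBP in place of a poly(A) tail. Some of these genes can also give polyadenylated transcripts that run past the stem-loop, and these are known from differentiated and resting cells. The libraries were made for mRNA, per the labels' protocols, and the sources used here do not give the way mRNA was selected. The values below are therefore of the histone RNA that this preparation kept.

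The labelled cell type was checked first. Of 14 cardiomyocyte markers, 12 had a mean below 0.5 TPM (reads scaled for gene length and depth), among them the sarcomere genes TNNT2, TNNI3, MYH6 and MYH7 and the cardiac transcription factor NKX2-5. The summed cardiomyocyte markers were 30.5 to 32.2 TPM in control and 26.6 to 32.3 TPM in KCl, nearly all from GATA4. Summed fibroblast markers were 3552 to 3872 TPM in control and 3759 to 4078 TPM in KCl, and 7 of the 8 tested were higher in KCl, where 20.1% of all tested genes were higher. Summed epithelial markers were 367.7 to 380.5 TPM in control and 532.9 to 558.4 TPM in KCl, leukocyte markers 170.6 to 185.2 and 123.8 to 133.4 TPM, smooth muscle markers 106.8 to 124.8 and 97.4 to 109.4 TPM, and endothelial markers 0.43 to 0.54 and 0.86 to 1.13 TPM, with the endothelial CDH5, VWF and KDR below 0.5 TPM. The part of these shifts in the histone values was not tested. In bulk RNA, a different number of cells in S phase and a different amount of histone RNA per cell cannot be told apart. Library totals were 18601977 to 19286588 estimated reads, and a count of 0 allows up to 3 reads, or 0.156 to 0.161 CPM by library total, for counting error only. All other CPM values (counts scaled to library size, with no correction for gene length) use library sizes scaled by TMM.

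The promoters of 5 members that were higher in KCl are shown because the results turn on them. Each runs from 250 bases before to 50 bases after the RefSeq start on GRCh38.p14, 5′ to 3′ on the gene's strand. Capitals mark the octamer ATTTGCAT, the element of H2B promoters that is bound by the POU factor POU2F1.

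HIST1H2BK, chr6:27146809-27147108, minus strand: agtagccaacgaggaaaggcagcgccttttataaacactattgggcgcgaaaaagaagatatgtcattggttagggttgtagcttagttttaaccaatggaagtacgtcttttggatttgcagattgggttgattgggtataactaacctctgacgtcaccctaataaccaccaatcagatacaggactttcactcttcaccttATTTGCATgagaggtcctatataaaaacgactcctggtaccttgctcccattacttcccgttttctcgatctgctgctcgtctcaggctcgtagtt
HIST2H2BE, chr1:149886633-149886932, minus strand: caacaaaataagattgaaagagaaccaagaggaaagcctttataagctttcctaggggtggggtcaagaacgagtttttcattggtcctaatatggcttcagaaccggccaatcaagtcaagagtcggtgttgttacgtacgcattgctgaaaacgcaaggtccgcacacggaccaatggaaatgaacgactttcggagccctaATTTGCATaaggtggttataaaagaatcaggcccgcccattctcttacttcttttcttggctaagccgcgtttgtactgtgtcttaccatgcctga
HIST1H2BJ, chr6:27132746-27133045, minus strand: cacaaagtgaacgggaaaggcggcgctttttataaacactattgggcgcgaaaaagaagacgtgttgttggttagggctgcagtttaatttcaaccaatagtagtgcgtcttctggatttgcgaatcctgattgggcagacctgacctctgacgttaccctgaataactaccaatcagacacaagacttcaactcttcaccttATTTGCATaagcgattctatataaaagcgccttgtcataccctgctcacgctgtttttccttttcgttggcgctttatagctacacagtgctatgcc
HIST1H2BD, chr6:26157871-26158170, plus strand: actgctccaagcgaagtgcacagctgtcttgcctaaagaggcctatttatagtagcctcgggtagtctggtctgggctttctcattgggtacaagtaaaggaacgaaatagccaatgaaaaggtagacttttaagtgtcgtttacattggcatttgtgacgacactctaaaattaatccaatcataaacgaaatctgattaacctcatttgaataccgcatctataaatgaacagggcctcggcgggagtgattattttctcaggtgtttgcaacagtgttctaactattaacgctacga
HIST1H1C, chr6:26056421-26056720, minus strand: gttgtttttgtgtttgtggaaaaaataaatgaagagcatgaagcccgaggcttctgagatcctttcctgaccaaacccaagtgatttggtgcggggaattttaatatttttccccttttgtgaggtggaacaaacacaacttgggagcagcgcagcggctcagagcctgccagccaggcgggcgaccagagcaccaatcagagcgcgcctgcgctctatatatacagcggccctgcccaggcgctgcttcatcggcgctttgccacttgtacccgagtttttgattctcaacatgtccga

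The octamer began 46 bases before the start in HIST1H2BK and in HIST2H2BE and 47 bases before it in HIST1H2BJ. HIST1H2BD and HIST1H1C had no match in these windows. Among the 61 members with a RefSeq promoter, a search on both strands for ATTTGCAT, or ATGCAAAT on the other strand, found the octamer in 12 of 16 H2B genes (75%), 11 of 16 H2A genes (68.8%), 1 of 12 H3 genes (8.33%), 0 of 6 H1 genes and 0 of 11 H4 genes. Because many H2A and H2B genes share a promoter region, 1 octamer can be counted for both genes of a pair. The H3 match was HIST1H3D, whose RefSeq window, chr6:26199244-26199543, adjoins the H2A gene HIST1H2AD. GENCODE places HIST1H3D elsewhere, at chr6:26196840-26197250. Among the 21 members above the limit, 11 had the octamer (52.4%). Besides the genes shown, these were HIST1H2AC and HIST1H3D, higher in KCl, and HIST2H2AC, called lower. The rest were not called: HIST1H2BO, HIST1H2AG, HIST1H2BC, HIST2H2BF and HIST1H2AM. Over all 27305 RefSeq promoters of this length the octamer was in 492 (1.8%). CCAAT, or ATTGG on the other strand, was in 52 of the 61 (85.2%) against 35.7% of all promoters, and in 2 of 11 H4 promoters (18.2%). TATAAA, or TTTATA on the other strand, was in 40 of the 61 (65.6%) against 12% of all promoters.

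The 3′ stem-loops are shown because they set apart the class of RNA that these genes make. Capitals mark the 16-base stem-loop with 5 bases on each side, from GENCODE 29 transcripts.

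HIST2H2BE: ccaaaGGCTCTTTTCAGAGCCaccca
HIST1H2AC: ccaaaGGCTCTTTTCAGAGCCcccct
HIST2H2AA3: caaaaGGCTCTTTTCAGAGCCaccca
HIST1H2AG: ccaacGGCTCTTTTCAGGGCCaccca
HIST3H2A: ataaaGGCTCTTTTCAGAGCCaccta
HIST2H2BF: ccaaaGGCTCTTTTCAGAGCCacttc
HIST1H3H: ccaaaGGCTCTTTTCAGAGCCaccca

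A stem-loop, searched on the transcript strand as GGNNNTNTNCANNNCC with pairing stems, was found in 262 of 83129 coding transcripts (0.315%) and in 23 of the 65 members. Of those 23 members, 17 had the exact loop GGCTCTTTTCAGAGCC, and HIST1H2AG differed from it as printed above. The search is limited by the annotation, since only 35 members have any annotated base after the stop codon, and HIST1H2BK, HIST1H1C, HIST1H3D and HIST2H2AC have none. Of the 21 members above the limit, 6 have a transcript that goes on for at least 300 bases past the stem-loop, such as HIST2H2BE with 1729 bases and HIST1H2AC with 1114 bases. Below the limit, 9 of 44 members have one. The polyadenylation signal AATAAA was in the last 50 bases of a transcript in 10 of 21 members above the limit and 9 of 44 below it. Neither could be scored without annotated bases after the stop codon, which 14 of the 21 and 21 of the 44 have.

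Few reads fell on these genes, and 1 gene took most of them. All 65 genes took 2567, 2709 and 2617 reads in the control libraries and 3317, 3192 and 3523 in the KCl libraries. That is 0.0133%, 0.014% and 0.0141% of all reads in control and 0.0173%, 0.0169% and 0.0185% in KCl, so that the groups did not overlap. HIST1H2BK took 53.3% to 56.8% of the members' reads in each library, and the 3 genes with the most reads took 71.1% to 75.5%. Even HIST1H2BK stood at rank 2809 by CPM among the 13044 tested genes. At the other end, 3 genes (HIST1H1A, HIST1H2AB and HIST1H4A) had no read in any library and 37 had a mean under 5.

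**Figure D1:**
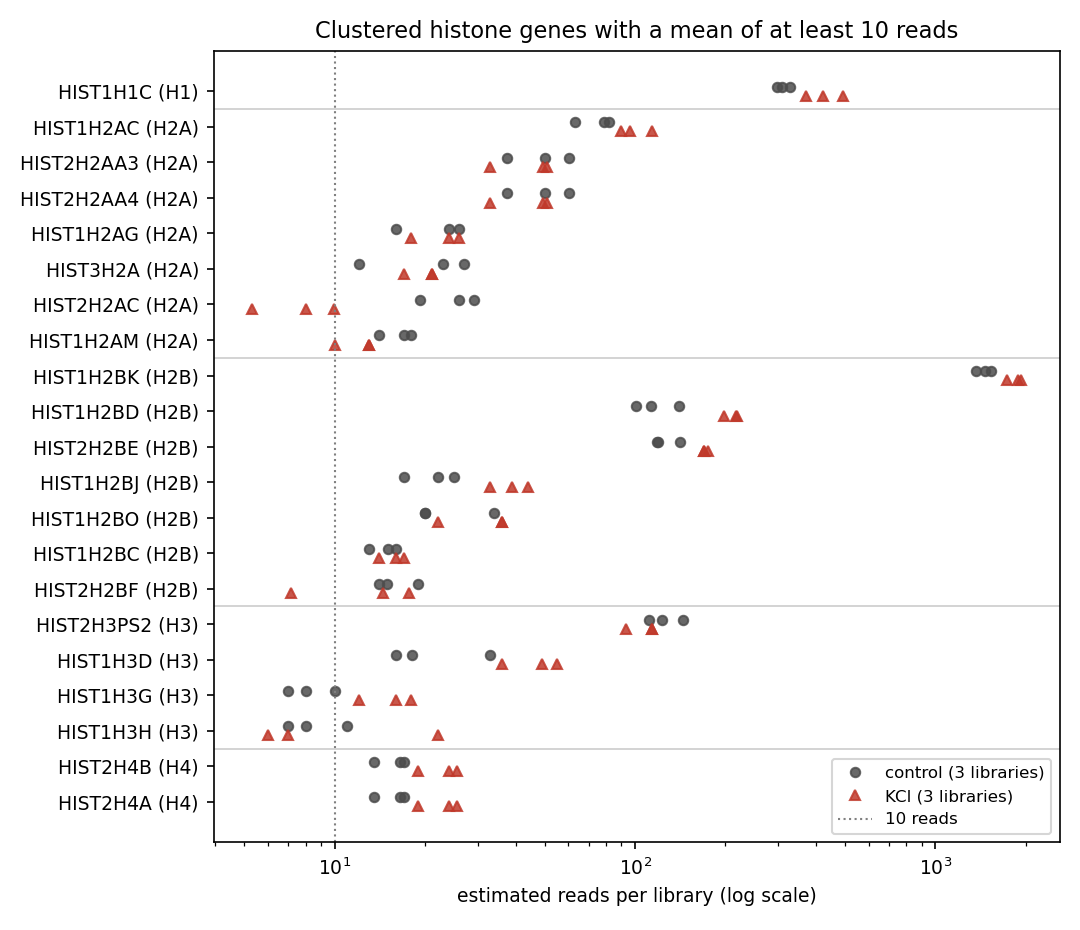
Estimated reads of the 21 clustered histone genes that reached a mean of 10, one point per library for 3 control and 3 KCl libraries, on a log axis. HIST1H2BK had 1368 to 1932 reads, and the lowest members a few to about 20 reads.

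Just inside the limit were HIST1H3G with a mean of 11.8 reads and HIST1H3H with 10.2, and just outside were HIST1H2AE with 9.17 and HIST1H2BH with 8.5. The 44 genes under the limit are 5 H1, 10 H2A, 9 H2B, 9 H3 and 11 H4 genes. Their reads added up to 100.9, 80.0 and 99.0 in control and 94.0, 132.0 and 96.5 in KCl. The groups overlapped in this sum, and 19 of the genes had more reads in KCl, 19 had fewer and 6 had equal numbers. No member under the limit passed the filter on low counts, so none was tested.

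In KCl, 4 H2B genes, the H1 gene, 1 H2A gene and 1 H3 gene rose. The H3 gene, HIST1H3D, shares reads with the H2A gene HIST1H2AD. HIST2H2AC, an H2A gene, was called lower on its own reads, but not when summed with the copies that share its reads (edgeR adjusted p = 0.168). Members that passed the filter numbered 20, of which 7 were higher in KCl (35%) and 1 was lower (5%) by edgeR's quasi-likelihood test at a Benjamini-Hochberg adjusted p of 0.05. Over all 13044 tested genes, 20.1% were higher, 18.0% were lower and 38.0% changed in either direction. The higher genes were HIST1H2BK, HIST1H1C, HIST1H2BD, HIST2H2BE, HIST1H2AC, HIST1H3D and HIST1H2BJ, and the lower gene was HIST2H2AC. The median log2 fold change was 0.41 over the tested members and -0.005 over all tested genes. Of the 21 members above the limit, 10 had every KCl library above every control library and 2 had every KCl library below, where 24.5% and 23.3% of all tested genes did so. The 10 include both HIST2H4A and HIST2H4B, which carried the same values. HIST2H2AA3 and HIST2H2AA4, also with the same values, are counted separately among the 20 and the 21. HIST2H2AC passed the filter through its control libraries and HIST1H3G through its KCl libraries, so these counts are a description. HIST1H3H had a mean above 10 but failed the filter and was not tested.

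**Figure D2:**
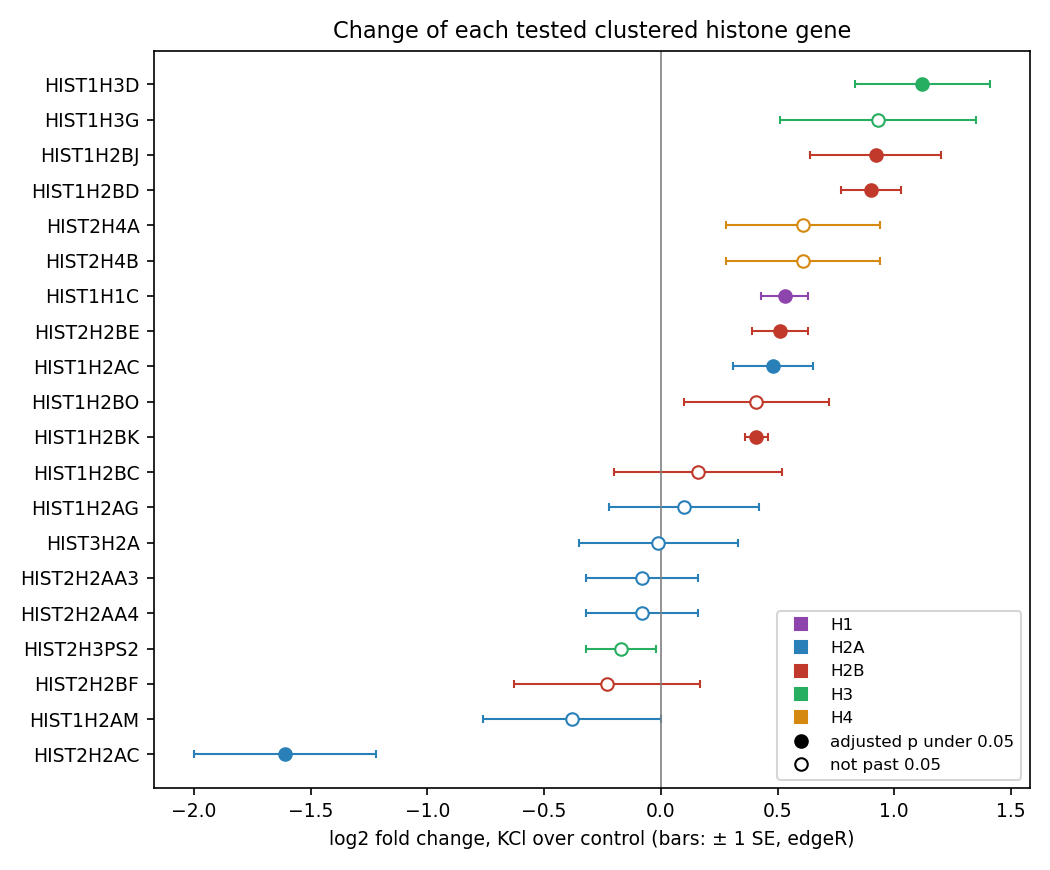
Log2 fold change of KCl over control with its standard error for the 20 tested members, ordered by size and coloured by histone class, where filled points passed the adjusted p of 0.05. The 7 genes higher in KCl lie from 0.41 to 1.12, and HIST2H2AC lies at -1.61.

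By class, the summed CPM of the members above the limit rose most in absolute terms for H2B. H2B was 88.2, 93.3 and 92.1 CPM in control and 125.0, 119.8 and 130.7 in KCl, a ratio of 1.37 between the group means. H1, which is HIST1H1C alone, was 16.6, 15.6 and 15.6 CPM in control and 22.5, 19.9 and 26.5 in KCl, a ratio of 1.44. H2A was 11.6, 14.3 and 13.7 CPM in control and 13.9, 12.1 and 14.5 in KCl, so its groups overlapped and their ratio was 1.02. H3 was 7.34, 8.82 and 9.43 CPM in control and 9.05, 10.4 and 9.71 in KCl, again with overlap and a ratio of 1.14. H4 was 1.68, 1.37 and 1.79 CPM in control and 2.03, 2.58 and 2.74 in KCl, without overlap and with a ratio of 1.52. The sums have no test, because the genes were chosen with earlier results known. They also lean on single genes. Without the member with the most reads, the log2 ratio of H2B moved from 0.46 to 0.65, that of H3 from 0.19 to 0.97 and that of H2A from 0.03 to -0.21. Over all H4 genes with a read, the log2 ratio of H4 was 0.37 against 0.60 for the pair above the limit.

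**Figure D3:**
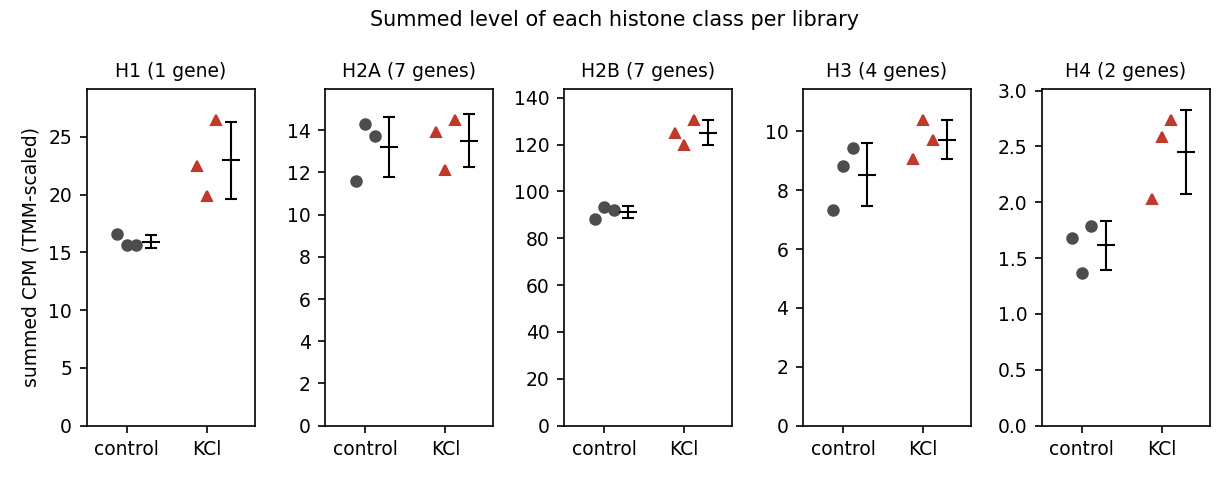
Summed CPM of the members above the limit by histone class, one point per library beside the group mean ± SD, 3 control and 3 KCl libraries, each panel with its own axis from 0. The groups are apart for H1, H2B and H4 and overlap for H2A and H3.

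HIST1H1C encodes H1.2, a linker histone that binds where DNA enters and leaves the nucleosome. It lies at chr6:26055787-26056428 on GRCh38, minus strand. It had 327, 308 and 296 reads in control and 421, 370 and 493 in KCl, and every KCl library was above every control library. The level went from 16.0 ± 0.59 to 23.0 ± 3.32 CPM (SD, n = 3), with a fitted log2 fold change of 0.53 ± 0.10 (SE) and an edgeR adjusted p of 9.38e-05. None of the other 5 H1 genes reached a mean of 10.

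H2B genes make the partner of H2A in the core octamer, and 4 of the 7 tested were higher in KCl. HIST1H2BK, at chr6:27146418-27146798, minus strand, had 1368, 1525.9 and 1464 reads in control and 1885, 1734 and 1932 in KCl. Both groups were well apart, at 74.7 ± 4.44 and 99.4 ± 5.42 CPM (SD, n = 3), with a log2 fold change of 0.41 ± 0.05 (SE) and an edgeR adjusted p of 1.54e-06. HIST1H2BD, at chr6:26158146-26171349, plus strand, had 140, 113 and 101 reads in control and 197, 217 and 218 in KCl. Its level rose from 6.06 ± 0.943 to 11.3 ± 0.669 CPM, a fold change of 1.86 with an edgeR adjusted p of 3.33e-06. An antisense gene, AL353759.1, and the pseudogene LARP1P1 overlap HIST1H2BD, and the sources used here do not say whether counting used the strand.

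HIST2H2BE, at chr1:149884459-149886652, minus strand, had 140.9, 118.96 and 118.46 reads in control and 169, 174.61 and 169.99 in KCl. All its KCl libraries were above its control libraries, with a log2 fold change of 0.51 ± 0.12 (SE) and an edgeR adjusted p of 0.00199. HIST1H2BJ, at chr6:27125897-27132750, minus strand, had 22, 25 and 17 reads in control and 39, 33 and 44 in KCl. It was higher by a log2 fold change of 0.92 ± 0.28 (SE), with an edgeR adjusted p of 0.0122. That call depended on single libraries, with an adjusted p of 0.053 without control replicate 3 and 0.058 without KCl replicate 3. HIST1H2BO, with 34, 20 and 20 reads in control and 22, 36 and 36 in KCl, overlapped between groups and did not pass (edgeR adjusted p = 0.319). Neither did HIST1H2BC nor HIST2H2BF, with log2 fold changes of 0.16 and -0.23.

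H2A genes differed among themselves. HIST1H2AC, at chr6:26124145-26139116, plus strand, had 63, 79 and 82 reads in control and 90, 96 and 114 in KCl. It was higher by a log2 fold change of 0.48 ± 0.17 (SE), with an edgeR adjusted p of 0.0262. The call was lost with DESeq2 (adjusted p = 0.092), without control replicate 1 (0.14) and without KCl replicate 3 (0.14). HIST2H2AC, at chr1:149886975-149887364, plus strand, was called lower, though it passed the filter on low counts only through its control libraries. It had 28.99, 19.17 and 25.99 reads in control and 9.94, 8 and 5.3 in KCl, or 1.27 ± 0.264 and 0.416 ± 0.124 CPM (SD, n = 3). The fit gave a log2 fold change of -1.61 ± 0.39 (SE) and an edgeR adjusted p of 0.00208, which is given as a description because of that filter. Its reads were split with HIST2H2AA3 and HIST2H2AA4, as given below. The sum of these genes, of which HIST2H2AC is the smaller part, was not called.

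The other 5 H2A genes did not pass. HIST2H2AA3 and its copy HIST2H2AA4 carried the same values, 37.51, 60.42 and 50 reads in control and 49.53, 33 and 50.85 in KCl. Those groups overlapped. HIST1H2AG had 16, 26 and 24 reads in control and 26, 24 and 18 in KCl, and these overlapped too (edgeR adjusted p = 0.826). HIST3H2A had a log2 fold change of -0.01 ± 0.34 (SE), and HIST1H2AM of -0.38 ± 0.38 (SE).

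Of the H3 genes, HIST1H3D was higher. In GENCODE it lies at chr6:26196840-26197250, minus strand, within the reach of AL031777.3, a protein-coding gene on the same strand that also overlaps HIST1H2AD. It had 18.06, 33 and 16.04 reads in control and 36, 55 and 49 in KCl, which did not overlap. Its log2 fold change was 1.12 ± 0.29 (SE), with an edgeR adjusted p of 0.00358. HIST2H3PS2, the H3 gene with the most reads, had 111.19, 122.7 and 144.91 in control and 114.19, 113.96 and 93.6 in KCl and did not pass (edgeR adjusted p = 0.379). A processed transcript on the same strand, AC239798.4, and an antisense gene, AC246680.1, overlap HIST2H3PS2. HIST1H3G had 8, 10 and 7 reads in control and 12, 18 and 16 in KCl. It missed the threshold with edgeR (adjusted p = 0.0798) and passed it with limma on log2(TPM + 1) (adjusted p = 0.0031). HIST1H3H, untested, had 7, 8 and 11 reads in control and 7, 6 and 22 in KCl.

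Above the limit, H4 was represented by HIST2H4A and HIST2H4B, which carried the same values in every library. Each had 16.5, 13.5 and 17 reads in control and 19, 24 and 25.5 in KCl. Control and KCl did not overlap, yet the log2 fold change of 0.61 ± 0.33 (SE) did not pass (edgeR adjusted p = 0.152). With limma on log2(TPM + 1) it passed (adjusted p = 0.014).

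Per length, in TPM, the order of the genes differs from that by reads. In control, HIST1H2BK was at 211.7 ± 12.6 TPM (SD, n = 3), HIST1H1C at 52.4 ± 2.07, HIST1H2BD at 19.0 ± 2.15, HIST1H2AC at 17.6 ± 2.7, and HIST2H2AA3 and HIST2H2AA4 at 11.9 ± 2.67 each. HIST1H2BD and HIST1H2AC did not differ beyond their spread in control. In KCl they were at 36.1 ± 2.69 and 23.8 ± 3.13 TPM. HIST2H2BE, the fourth by reads, was at 6.51 ± 0.627 TPM in control and 9.0 ± 0.323 TPM in KCl. HIST2H2AC was at 7.59 ± 1.65 TPM in control and 2.38 ± 0.698 TPM in KCl.

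Many of these genes are near-copies of each other, and the counts show how reads were shared among genes, not only among copies. HIST1H3D and HIST1H2AD are of different classes, H3 and H2A, and lie on the minus strand of chromosome 6. GENCODE places HIST1H3D at 26196840-26197250 and HIST1H2AD at 26198851-26199243. The RefSeq promoter window of HIST1H3D, 26199244-26199543, lies upstream of HIST1H2AD, so RefSeq and GENCODE start HIST1H3D at different places. Which of these genes gave the reads listed for HIST1H3D was not tested. Of the 21 members above the limit, 10 had counts that were not whole in at least 1 library. In 5 groups of genes the fractions added up to whole reads, within 0.025 of a read, in every library that held fractions. Such libraries numbered 5 for HIST2H2AC with HIST2H2AA3 and HIST2H2AA4, 3 for HIST2H4A with HIST2H4B and for HIST2H3A with HIST2H3C, and 2 for HIST1H3D with HIST1H2AD and for HIST1H2AI with HIST1H2AJ. HIST2H2AC, HIST2H2AA3 and HIST2H2AA4 together had 104, 140 and 126 reads in control and 109, 74 and 107 in KCl, with overlap. Their sum went from 6.34 ± 0.942 to 5.19 ± 1.05 CPM (SD, n = 3), with a log2 fold change of -0.29 ± 0.16 (SE) and an edgeR adjusted p of 0.168. In control, HIST2H2AC was at 1.27 CPM beside 2.54 CPM for each of HIST2H2AA3 and HIST2H2AA4. Because HIST2H2AC is the smaller part, the sum cannot decide whether HIST2H2AC itself fell. HIST1H3D with HIST1H2AD had 27, 33 and 28 reads in control and 36, 55 and 49 in KCl. Their sum rose by a log2 fold change of 0.73 ± 0.26 (SE), with an edgeR adjusted p of 0.0261. HIST1H2AD itself was listed with 8.94, 0 and 11.96 reads in control and none in KCl. HIST2H4A with HIST2H4B had 33, 27 and 34 reads in control and 38, 48 and 51 in KCl, with an edgeR adjusted p of 0.0588. These sums were added after the values had been seen.

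**Figure D4:**
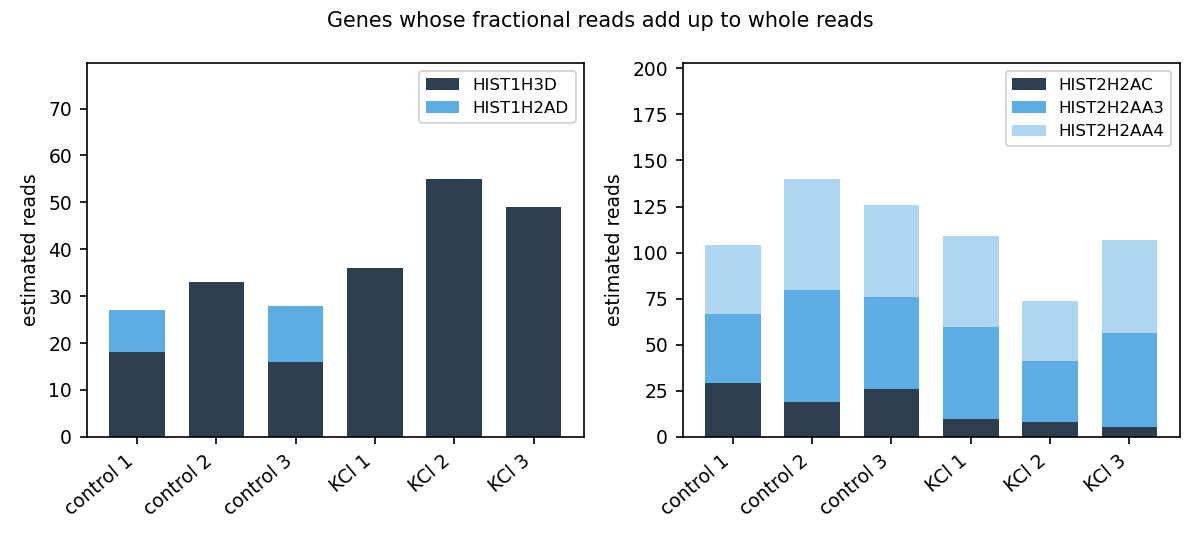
Estimated reads by library for 2 of the gene groups whose fractional counts add up to whole reads, as stacked bars whose full height is the sum, 3 control and 3 KCl libraries. HIST2H2AC is lower in all KCl libraries, while the full bar with HIST2H2AA3 and HIST2H2AA4 overlaps between groups.

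H2A and H2B genes often lie head to head and share a promoter region. There were 10 such pairs with starts within 500 bases of each other, and both genes were above the limit in 4. HIST2H2BE and HIST2H2AC start 236 bases apart in RefSeq, and the HIST2H2BE promoter printed above covers both starts. The log2 ratio of H2B to H2A CPM was 2.28, 2.63 and 2.19 in control and 4.09, 4.45 and 5.0 in KCl. The groups did not overlap and differed by 2.15, a description that restates the low KCl reads of HIST2H2AC and includes the reads it shares. No pair could pass a two-sided exact permutation test, which cannot go below p = 0.1 with 3 against 3 libraries. For HIST1H2BJ and HIST1H2AG, 248 bases apart, the ratio was higher in KCl by 0.81, with overlapping groups. For HIST1H2BO and HIST1H2AM, 240 bases apart, it was higher by 0.80, also with overlap. For HIST1H2BC and HIST1H2AC, 246 bases apart, it differed by -0.33, again with overlap. HIST1H2BK has HIST1H2AH as its neighbour, which had 1 read in the 6 libraries together.

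**Figure D5:**
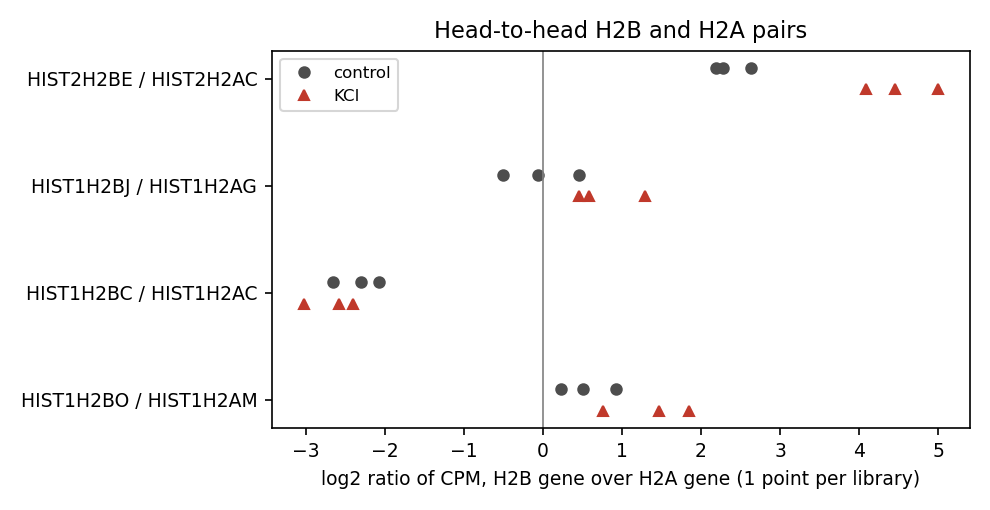
Log2 ratio of H2B to H2A CPM in the 4 head-to-head pairs with both genes above the limit, one point per library, 3 control and 3 KCl libraries. Only the HIST2H2BE and HIST2H2AC pair has no overlap between groups.

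The genes that make, process and use histone RNA were listed to set the members in context. Replication-independent histones are mostly, but not all, made throughout the cell cycle from polyadenylated RNA. Of the 12 listed, 2 were higher and 3 lower, with a median log2 fold change of -0.07. Among all tested genes, 20.1% were higher and 18.0% lower. H3F3B, which encodes the H3.3 variant, fell from 511.7 ± 24.3 to 387.3 ± 14.9 CPM (SD, n = 3; edgeR adjusted p = 3.52e-08). H1F0, the linker histone of resting cells, rose from 884.5 ± 16.1 to 1070 ± 59.7 CPM (edgeR adjusted p = 7.63e-06). H2AFX, the variant phosphorylated at DNA breaks, fell by 0.25 on the log2 scale, and H1FX rose by 0.23. Per length, in the RNA that this preparation kept, H1F0 was at 846.0 TPM and H2AFZ at 762.1 TPM in control, above HIST1H2BK at 211.7 TPM. RNA without a poly(A) tail may have been kept less well.

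Of 32 transcription and 3′ end processing factors, 5 were higher and 5 lower, with a median of 0.01. SLBP, the stem-loop binding protein, averaged 157.2 ± 6.14 CPM (control) and 162.8 ± 2.83 CPM (KCl), a log2 difference of 0.05 ± 0.04 (SE; edgeR adjusted p = 0.387). NPAT was at 41.5 ± 2.02 and 46.0 ± 2.93 CPM (edgeR adjusted p = 0.0814), and passed without KCl replicate 1 (0.034). CCNE2, a cyclin E that with CDK2 activates NPAT, fell by 0.64 on the log2 scale. SRRT, a partner of the cap-binding complex, rose by 0.39, E2F1 rose by 0.29, and CPSF3, the nuclease that cuts pre-mRNA 3′ ends, fell by 0.21. Without control replicate 1 the count of higher genes was 3, and the count of lower genes was 3 without control replicate 2, KCl replicate 1 or KCl replicate 3.

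Of 15 decay factors, 4 were higher and 3 lower. SMG1 rose by 0.20, EXOSC4 by 0.25 and EXOSC10 by 0.13 on the log2 scale, and MTREX fell by 0.17. The SMG1 call was lost with limma on log2(TPM + 1) (adjusted p = 0.24) and without KCl replicate 2 (edgeR, 0.052), that of EXOSC4 without control replicate 2 (0.052), KCl replicate 1 (0.053) or KCl replicate 3 (0.1), and that of EXOSC10 without control replicate 1 (0.097), KCl replicate 1 (0.06) or KCl replicate 3 (0.096) and with limma on log2(TPM + 1) (0.095). The count of higher decay factors was 2 without control replicate 1, control replicate 2 or KCl replicate 1 and 1 without KCl replicate 3, and the count of lower ones was 1 without KCl replicate 2. ERI1, the exonuclease that trims the histone stem-loop, was lower by -0.19 (edgeR adjusted p = 0.0236), and was chosen after its value had been seen.

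Of 25 histone chaperones and import factors, 6 were higher and 7 lower, and the lower count was 4 without control replicate 2. ANP32E, a chaperone of H2A.Z, fell by 0.30 on the log2 scale, SUPT16H, a subunit of the FACT complex, fell by 0.21, and IPO4, an importin, fell by 0.29. ATRX, which deposits H3.3 with DAXX, rose by 0.29, a call lost with limma on log2(TPM + 1) (adjusted p = 0.051). Of 38 S-phase and replication genes, 8 were higher and 10 lower, with a median of -0.02. MCM5, MCM4 and MCM3, subunits of the replicative helicase, rose by 0.42, 0.32 and 0.27 on the log2 scale, and CCNA2, the S-phase cyclin A, fell by 0.37. Beside these counts stand the 20.1% of all tested genes that were higher and the 18.0% that were lower.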

How the data were processed

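RNA from 3 control and 3 KCl libraries of AC16 cells was sequenced, per the labels. The deposited table holds estimated counts and TPM per gene and library, and FPKM, which the authors also deposited, was not used. The genome build named is GRCh38.p12, per the submitters' processing notes. Sources used here do not give the aligner, the counting tool or its use of strand. The estimated counts as deposited were not whole for 11.25% to 11.87% of genes in a library, and 27 symbols turned into dates were restored from the gene ID. Library columns were matched to groups through the authors' group means, which agreed within 3.3e-10.

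After rounding the counts to integers, KCl was compared with control in edgeR 4.0.16 (R 4.3.3) with TMM scaling (filterByExpr with a minimum count of 10 and a minimum total of 15, robust quasi-likelihood F test, two-sided), with Benjamini-Hochberg adjustment over 13044 genes and a threshold of 0.05. The script was checked on simulated data. CPM is scaled by TMM, and an SE is the log2 fold change divided by the square root of F. Alternatives used limma 3.58.1, DESeq2 1.42.0 and the deposited TPM with a pseudocount of 1. Promoters came from RefSeq (GRCh38.p14), transcripts and coordinates from GENCODE 29 (GRCh38).

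Every member above a mean of 10 reads could be named, those that passed and the 12 with the highest CPM library by library, and from each list up to 4 genes that passed, by smallest p, with SLBP and NPAT always. The members and lists were chosen with earlier results of these data known.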

Additional observations from a re-analysis of the deposited data

How the results depend on the processing

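The count of higher members ran from 5 to 7 when each library was left out in turn, and was 10 with limma on log2(TPM + 1); the lower count stayed at 1 except with read-sharing genes summed (chosen after seeing the data), where it was 0. The labels do not say whether replicate numbers pair the samples. Same-numbered libraries correlated at -0.00388, -0.00598 and 0.0479 in their deviations, and differently numbered ones at -0.0589 to 0.0679. These values show no shared effect of the number but cannot exclude pairing. A fit with the replicate block gave 7 higher and 1 lower member, and 2715 higher and 2425 lower genes in all. Of all calls 52.8% were higher, and 40.9% with limma on log2(TPM + 1) (1825 higher, 2639 lower), where the median of all genes was -0.037. The log2 ratio of H2A was 0.27 with whole-count members and -0.21 without its most-read member, that of H2B 0.79 and 0.65, and that of H3 0.73 and 0.97, or 0.50 with deposited TPM. With limma on log2(TPM + 1) the higher processing factors were 3, decay factors 1 and chaperones 2. Leaving out each library gave 3 to 6 higher and 3 to 6 lower processing factors, 1 to 3 higher and 1 to 3 lower decay factors, and 4 to 7 lower chaperones. Genes that changed sign had not passed: HIST3H2A was 0.06 with limma-voom, 0.02 with the block, 0.00 with TPM and -0.27 to 0.22 without single libraries; HIST2H2AA3 and HIST2H2AA4 ran from -0.25 to 0.09, HIST1H2AG from -0.09 to 0.24 and HIST2H2BF from -0.54 to 0.06. The cause of these moves was not tested. Counts under about 20 reads limit most members.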
